A study of Populus euphratica with 12 samples.

Results

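The 2 RNAs described here belong to 1 locus of *Populus euphratica*, namely circRNA_0974 and XM_011007004.1, the mRNA that it overlaps in the sense direction. They are 2 of the 55285 RNAs listed for this series (49676 mRNAs, 4460 lncRNAs and 1149 circRNAs). circRNA_0974 was chosen by its RPM values, which were the highest of all circRNAs, so its rank and its level are given as a description, without a test. XM_011007004.1 was taken because the authors' circRNA annotation names it as the overlapped transcript.

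*P. euphratica* is a desert poplar whose leaves change shape as the tree ages, which is called heterophylly. Juvenile leaves were sampled in 4 shape groups with 3 biological replicates each, and no treatment was applied. Linear leaves (Li) came from trees of 0 to 3 years, lanceolate leaves (La) from trees of 4 to 6 years, ovate leaves (Ov) from trees of 8 to 12 years and broad-ovate leaves (Bo) from trees of over 20 years. Leaf shape and tree age changed together over the groups and cannot be told apart. Libraries carry the name of their group with the replicate number (Li1). mRNA levels are in FPKM, a fragment count divided by transcript length and library size. circRNA levels are in RPM, a count of reads across the back-splice junction divided by library size.

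A circRNA is a closed RNA ring, formed when the splicing machinery joins the end of an exon to the start of an exon that lies upstream in the same precursor. Such back-splicing uses the same precursor as the linear mRNA of the gene. A ring is recognised in sequencing data only by reads that cross the junction in the order opposite to that of the genome, and its lack of free ends makes it resistant to exonucleases that digest linear RNA. A called circRNA is therefore a junction seen in reads, and its level counts junction reads alone.

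The genomic span of circRNA_0974 was long, and most of it lay outside the mRNA. The circRNA was placed on the minus strand of scaffold NW_011500185.1, from 44746 to 105870 in the assembly PopEup_1.0, a span of 61125 bases. The length listed for the ring in the authors' files was 60754 bases, which is 371 bases less than the span. XM_011007004.1, the 1 transcript of the protein-coding gene LOC105111597, lay on the same strand from 43829 to 45814, a span of 1986 bases. Thus 1 end of the ring lay inside the transcript, 917 bases from its lower coordinate, and 1069 bases of the transcript were inside the ring. The far end lay 60056 bases beyond the transcript. On the minus strand this is the upstream side, outside the listed limits of LOC105111597. The files and the RefSeq gene table give no product for LOC105111597, so its function is not stated here. Exon limits of the transcript and the sequences at both ends of the ring were not analysed here. The word ring stands for the span between the called ends, and whether these reads came from a closed RNA was not tested here.

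Few circRNAs were as long. Of the 1149 circRNAs listed, 14 had a longer genomic span, and the median span was 1711 bases. Of the 1085 circRNAs with an overlapped transcript, 832 had both ends inside the span of that transcript, 236 had 1 end inside, as circRNA_0974 had, and 17 had none. Among the 10 circRNAs with the highest mean RPM, 8 had 1 end inside, 1 had both ends inside and 1 was intergenic. By level, then, circRNA_0974 stood in a group whose members mostly reached out of their transcript, although most circRNAs did not.

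Besides circRNA_0974, 3 circRNAs were listed at the locus, each in 1 library and with few reads. circRNA_0972 (31863 to 105519) had 0.0827 RPM in Li1, which came to 7 junction reads. circRNA_0973 (44386 to 105519) had 0.106 RPM in Li2, which came to 9 junction reads. circRNA_0975 (97439 to 105519, intergenic) had 0.0368 RPM in Ov1, which came to 3 junction reads. All 3 ended at the same base, 351 bases short of the far end of circRNA_0974, and circRNA_0973 began 360 bases before it. Against them, circRNA_0974 had between 597 junction reads (Bo3) and 7270 (Li3), and it was above 0 in all 12 libraries, as were 17 circRNAs in all.

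**Figure D1:**
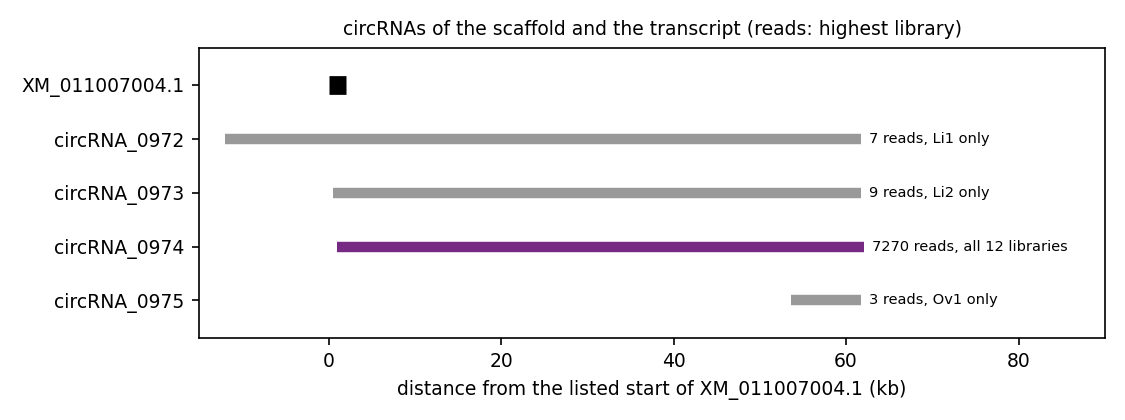
Map of the locus, with the distance from the lower coordinate of XM_011007004.1 in kb on the horizontal axis, 1 row for each RNA and the highest number of junction reads in any library beside each circRNA. The black block is the transcript, the purple bar is circRNA_0974, which runs 60056 bases beyond it, and the grey bars are the 3 circRNAs seen in 1 library each.

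The map of the locus shows the short transcript at one end of the ring and the shared far end of the rare circRNAs. In the order of genes in the RefSeq table, the lncRNA gene LOC105111596 and the pseudogene LOC105111595 lay within the span of circRNA_0974, and the limits of the pseudogene LOC105111594 held its far end. The lncRNA XR_839620.1 of LOC105111596 was listed at 0 in all 12 libraries. On the other side of LOC105111597, XR_839621.1 of the lncRNA gene LOC105111598 was also listed at 0 in all 12 libraries. XM_011007012.1 of LOC105111607, the next protein-coding gene on that side, had between 0.297 FPKM (Li2) and 2.12 FPKM (La2). LOC105111599, a pseudogene beyond it, has no transcript in the mRNA and lncRNA files used here. The high level was therefore seen for LOC105111597 and not for the neighbours with listed values.

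circRNA_0974 was the most abundant circRNA in each of the 12 libraries. Its level was 36.1, 61.3 and 84.5 RPM in Li1, Li2 and Li3, and 25.1, 11.7 and 24.6 RPM in La1, La2 and La3. It was 39.8, 11.6 and 13.3 RPM in Ov1, Ov2 and Ov3, and 41.0, 30.6 and 7.33 RPM in Bo1, Bo2 and Bo3. Li2 and Li3 stood above all other libraries, but Li1 lay below Ov1 and Bo1, so the Li group overlapped with the Ov and Bo groups. Of the older groups, La alone lay wholly below Li, and the lowest value of all was that of Bo3. A full separation of Li above the 9 others was seen in 2 of 244 circRNAs tested (0.82%), and circRNA_0974 was not among them.

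Li averaged 60.6 ± 24.2 RPM, La 20.5 ± 7.60 RPM, Ov 21.6 ± 15.8 RPM and Bo 26.3 ± 17.3 RPM (SD, n = 3 each). La, Ov and Bo, neighbours in the order of the means, differed by less than the SD of any of them. Over all 12 libraries the highest value was 11.5-fold the lowest, and the coefficient of variation was 70.3%. The spread within groups was wide, with the highest value 5.60-fold the lowest in Bo and 3.44-fold in Ov.

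XM_011007004.1 was among the most abundant mRNAs of the leaf and followed the same pattern. It had 1557, 2280 and 2845 FPKM in Li1, Li2 and Li3, and 856, 432 and 906 FPKM in La1, La2 and La3. It had 1459, 369 and 501 FPKM in Ov1, Ov2 and Ov3, and 1353, 1110 and 411 FPKM in Bo1, Bo2 and Bo3. All 3 Li libraries were above the 9 others for this mRNA, although Li1 exceeded Ov1 by little. The same separation was seen in 1278 of 32309 mRNAs tested (3.96%). By rank among all mRNAs listed, XM_011007004.1 stood between 6th in Li3 and 167th in Ov2. Li averaged 2227 ± 646 FPKM, La 731 ± 260 FPKM, Ov 776 ± 595 FPKM and Bo 958 ± 489 FPKM (SD, n = 3 each), and the highest library was 7.72-fold the lowest.

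**Figure D2:**
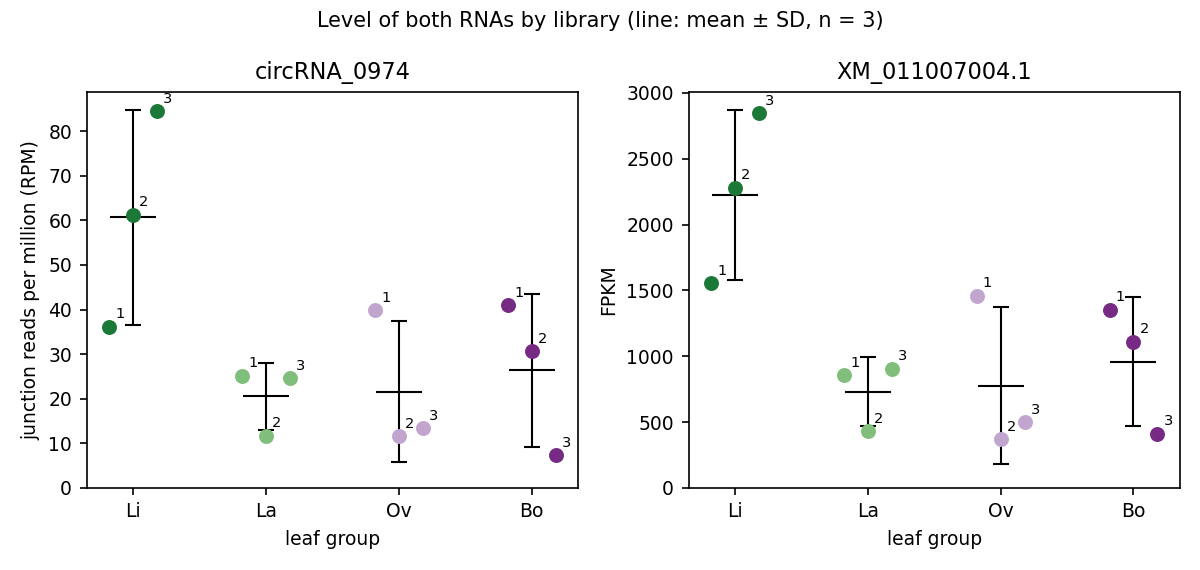
Level of circRNA_0974 (left, RPM) and of XM_011007004.1 (right, FPKM) in each library, by leaf group from Li to Bo, with points numbered by library and bars for the mean ± SD (n = 3). Li2 and Li3 are highest in both panels, Ov1 lies far above Ov2 and Ov3, and Bo3 lies below Bo1 and Bo2.

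In the plot of levels by leaf group, the order of libraries within each group was alike in both panels, apart from La1 and La3, which nearly tied. To ask whether either RNA differed between leaf groups, log2 values were tested with limma, with Benjamini-Hochberg adjustment over all RNAs of the class. The log2 change of circRNA_0974 was -1.56 in La/Li (SE 0.61, adjusted p = 0.594), -1.64 in Ov/Li (adjusted p = 0.401) and -1.45 in Bo/Li (adjusted p = 0.505). The 95% interval of the last ran between -2.74 and -0.15 before adjustment, and without Bo3 the log2 change in Bo/Li was -0.69 (adjusted p = 0.906). No call was therefore made for circRNA_0974, and of the 244 circRNAs tested none (0%) passed in any pair, whereas 17 (6.97%) had an unadjusted p under 0.05 in La/Li, 20 (8.2%) in Ov/Li and 20 (8.2%) in Bo/Li. In the other pairs these were 3 (1.23%) in Ov/La, 16 (6.56%) in Bo/La and 17 (6.97%) in Bo/Ov. The unadjusted p of circRNA_0974 was 0.0215 in La/Li, 0.0164 in Ov/Li and 0.0310 in Bo/Li.

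The 3 pairs without Li gave changes near 0, with wide intervals. The log2 change of circRNA_0974 was -0.08 in Ov/La (95% interval between -1.38 and 1.21, adjusted p = 1), 0.11 in Bo/La (adjusted p = 0.969) and 0.20 in Bo/Ov (adjusted p = 0.972). A difference of 2-fold in either direction lay inside the interval in Ov/La, so these libraries could not show whether the groups were alike. The limma F test over the 4 groups gave an adjusted p of 0.613 for circRNA_0974, where 0% of circRNAs passed and 18 (7.38%) had an unadjusted p under 0.05.

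XM_011007004.1 gave changes of the same size, and none passed the test. Its log2 change was -1.64 in La/Li (SE 0.62, limma adjusted p = 0.314), where 0.0279% of 32309 mRNAs were called. It was -1.74 in Ov/Li (limma adjusted p = 0.181), where 0.306% were called, and -1.34 in Bo/Li (limma adjusted p = 0.277), where 0.508% were called. Without Bo3 the log2 change of XM_011007004.1 in Bo/Li was -0.82 (limma adjusted p = 0.574). The changes in the other pairs were -0.10 in Ov/La (adjusted p = 1, 0% called), 0.29 in Bo/La (adjusted p = 0.953, 0.149% called) and 0.40 in Bo/Ov (adjusted p = 0.908, 0.108% called). The limma F test gave an adjusted p of 0.351, where 0.266% were called. Its unadjusted p was 0.0232 in La/Li, 0.0172 in Ov/Li and 0.0535 in Bo/Li, where 13.5%, 19.3% and 18.6% of mRNAs in the same order of pairs had an unadjusted p under 0.05. Both RNAs thus had lower means in La, Ov and Bo than in Li, by differences that did not pass after adjustment over all RNAs of the class.

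Across the 12 libraries the circRNA followed the mRNA closely. Pearson's r of the log2 values was 0.980 and Spearman's rho was 0.958. By permutation of the libraries with 1e+05 resamples, the two-sided p was 1e-05 for r (the smallest value these resamples can give) and 3e-05 for rho. Adjusted over the 3 relations computed, these were 3e-05 and 9e-05. Without Li3 and Ov2, the libraries farthest from the median, r was 0.978 over the other 10. Of 66 pairs of libraries, 61 had the same order on both RNAs. Both values of a library came from the same reads and were scaled by the size of the library. That size was nearly constant (81.5 to 86.0 megareads). The libraries held total RNA, and 1069 of the 1986 bases of the transcript span lay inside the ring. Over these bases, reads of a ring and of linear mRNA were not separated in the FPKM. The FPKM of XM_011007004.1 may therefore hold reads of the ring, and their part in the relation was not tested.

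The relation was also present within leaf groups. After the group means had been taken away from the log2 values, r was 0.977, and an exact permutation test within groups over all 1296 arrangements gave p = 0.001543. In Ov, for example, Ov1 exceeded Ov2 in both RNAs, with 39.8 against 11.6 RPM and 1459 against 369 FPKM. The slope of log2 RPM on log2 FPKM was 1.05, and between 0.978 and 1.10 when any library was left out, so that the circRNA changed nearly in proportion to the mRNA.

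**Figure D3:**
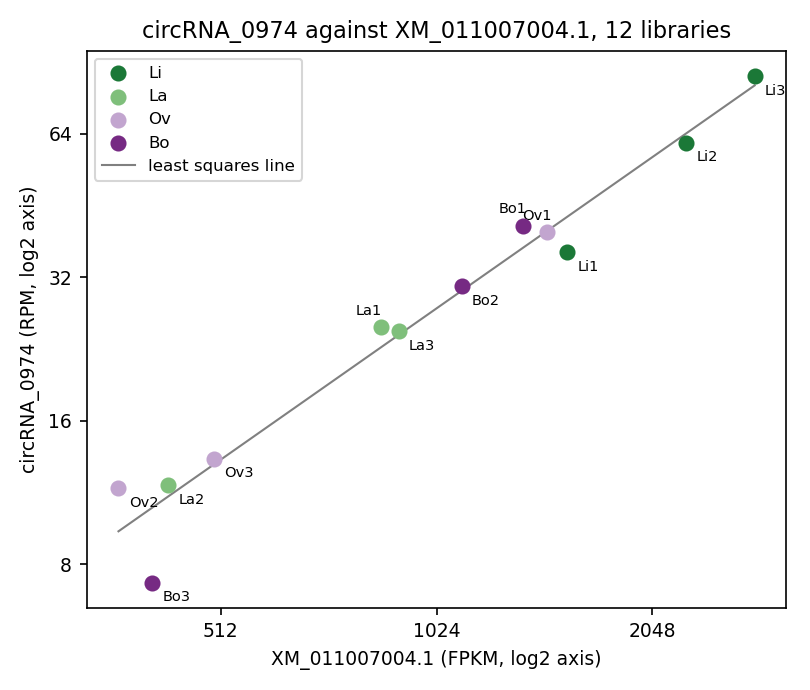
circRNA_0974 (RPM) against XM_011007004.1 (FPKM) in 12 libraries, both on log2 axes, with points coloured by leaf group and the least squares line in grey. The libraries lie along a line with a slope of 1.05, and Bo3 lies farthest from it, 0.52 below on the log2 scale.

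The proportion was seen most plainly as a ratio of RPM to FPKM, which does not set the ring against linear mRNA alone. The level of circRNA_0974 per 1000 FPKM of XM_011007004.1 was 23.2, 26.9 and 29.7 RPM in Li1, Li2 and Li3, and 29.4, 27.2 and 27.2 RPM in La1, La2 and La3. It was 27.3, 31.3 and 26.6 RPM in Ov1, Ov2 and Ov3, and 30.3, 27.6 and 17.8 RPM in Bo1, Bo2 and Bo3. The groups overlapped, and an exact permutation test of the F statistic over all 15400 arrangements gave p = 0.834 (one-sided). In the 11 libraries other than Bo3 the circRNA varied 7.32-fold and the mRNA 7.72-fold, while the ratio lay between 23.2 and 31.3.

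Bo3 was the exception in the plot of the circRNA against the mRNA. Its residual from the line was -0.52 on the log2 scale, where the residuals had an SD of 0.22. Its 597 junction reads gave the ratio a 95% Poisson interval between 16.4 and 19.3, and that of the next lowest library, Li1, lay between 22.4 and 24.0. Other libraries also had intervals that lay apart, such as Li1 and Li3 (between 29.0 and 30.4), so separate intervals do not single out Bo3. These intervals cover the counting error of junction reads only, since the depth behind an FPKM value is unknown. Bo3 also stood apart from the other Bo libraries in the markers of lignifying tissue, 3 laccase-12-like transcripts with a summed level of 0.187 FPKM in Bo3, against 29.7 in Bo1 and 37.3 in Bo2. Low sums were also seen in other groups, with 0.103 FPKM in La2 (ratio 27.2), 0.337 in Li1 (ratio 23.2) and 0.480 in Ov2 (ratio 31.3). The part of these transcripts in the ratio of Bo3 was not tested. Without Bo3 the slope was 0.978.

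The other circRNAs were summed to ask whether their level moved with circRNA_0974. The RPM of the remaining 1148 circRNAs together was 28.6, 30.0 and 33.0 in Li1, Li2 and Li3, and 35.1, 29.3 and 51.8 in La1, La2 and La3. It was 38.9, 37.0 and 37.9 in Ov1, Ov2 and Ov3, and 33.3, 29.8 and 36.8 in Bo1, Bo2 and Bo3. The highest library (La3) was 1.81-fold the lowest (Li1). A sum over many RNAs varies less than its members. Some single circRNAs varied as widely as circRNA_0974 (11.5-fold), such as circRNA_0876 (18.9-fold) and the intergenic circRNA_0970 (13.9-fold, named after its values were seen). Their lowest values were small, 0.123 and 0.0827 RPM, against 7.33 RPM for circRNA_0974. In contrast, circRNA_1136, with the second highest mean RPM, varied 3.10-fold. The groups overlapped, and the exact permutation test on log2 values gave p = 0.3256 (one-sided, 15400 arrangements). With 1 library left out the p of this test ranged from 0.04883 (without La2) to 0.5427 (without Li1).

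No relation of either RNA with the remaining circRNAs was found over the 12 libraries. For circRNA_0974, r was -0.237 (permutation p = 0.4664, adjusted p = 0.4664 over the 3 relations) and rho was -0.287 (permutation p = 0.3647), and for XM_011007004.1 r was -0.257 (permutation p = 0.4315). On deviations from the group means the sign turned, to 0.152 for the circRNA and 0.234 for the mRNA.

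The share of circRNA_0974 in total RPM ranged between 16.6 and 71.9%. The share was 55.8, 67.1 and 71.9% in Li1, Li2 and Li3, and 41.7, 28.6 and 32.2% in La1, La2 and La3. It was 50.6, 23.8 and 26.0% in Ov1, Ov2 and Ov3, and 55.2, 50.7 and 16.6% in Bo1, Bo2 and Bo3. The 95% Wilson intervals were narrow, between 71.1 and 72.8% in Li3 and between 15.4 and 17.9% in Bo3, and cover counting error only. All 3 Li libraries were above the 9 others, Li1 by little over Bo1. The share averaged 65.0 ± 8.28% for Li, 34.2 ± 6.78% for La, 33.4 ± 14.9% for Ov and 40.8 ± 21.1% for Bo (SD, n = 3 each). The exact permutation test over the 4 groups gave p = 0.0876 (one-sided), and 0.0213 without Bo3 or 0.04305 without Ov1.

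**Figure D4:**
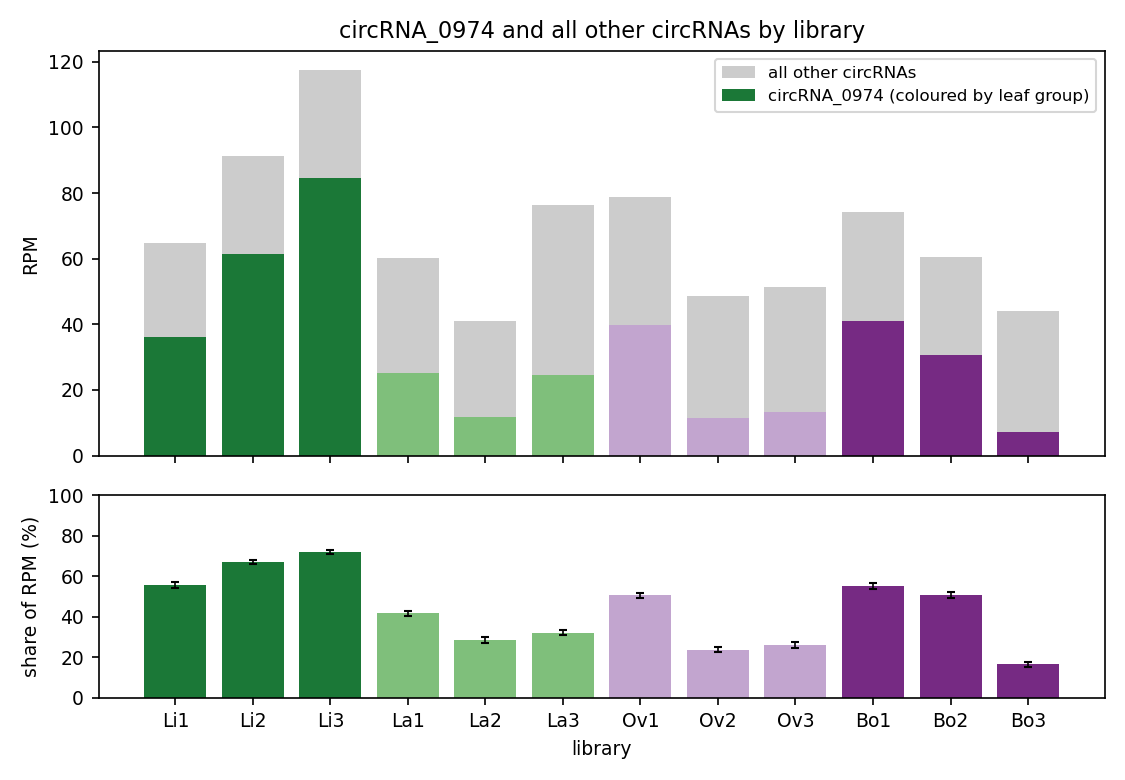
Top, RPM of circRNA_0974 (coloured by leaf group) with the RPM of all other circRNAs stacked on it (grey) in each library, and bottom, the share of circRNA_0974 in total RPM in percent with 95% Wilson intervals. The grey parts lie between 28.6 and 51.8 RPM, while the coloured parts lie between 7.33 and 84.5 RPM.

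The plot of stacked RPM shows that Li3 and Li2, which had the most circRNA_0974, also had the most RPM in total. All circRNAs together had between 3421 junction reads (La2) and 10106 (Li3). Over the 12 libraries its mean of 32.3 RPM was 47.9% of the mean total.

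The next circRNAs were far lower on average. circRNA_1136, which overlaps XM_011015802.1 of LOC105117971, had the second highest mean, 5.90 RPM, so that circRNA_0974 was 5.47-fold above it. circRNA_1136 was the second most abundant circRNA in 10 libraries, and circRNA_1134 (mean 2.36 RPM, above 0 in 7 libraries) was second in Bo1 and Bo3. The distance between circRNA_0974 and the second circRNA was 16.7-fold in Li2 but 1.19-fold in Bo3, where circRNA_1134 had 6.14 RPM. The following means were 1.25 RPM for circRNA_0840, 1.23 RPM for circRNA_0876 and 1.05 RPM for circRNA_0827. Unlike circRNA_0974, circRNA_1136 had its highest group mean in La, with means of 4.14 RPM for Li, 7.53 for La, 6.88 for Ov and 5.04 for Bo.

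Of the other abundant circRNAs, some also followed their overlapped mRNA, at ratios lower than, like or higher than that of circRNA_0974. circRNA_1136 had a rho of 0.930 with XM_011015802.1 over the 12 libraries and 26.5 RPM per 1000 FPKM of it on means, against 0.958 and 27.5 for circRNA_0974. circRNA_0876 had a rho of 0.937 with XM_011003730.1 and 20.0 RPM per 1000 FPKM. Their spans were 30468 and 30186 bases, also with 1 end inside the transcript. circRNA_0077, the seventh by mean RPM, had the closest relation after circRNA_0974 among the 10 most abundant, with a rho of 0.944 with XM_011045718.1, but 66.8 RPM per 1000 FPKM. The others followed less closely. circRNA_0326 had a rho of 0.872 and 272 RPM per 1000 FPKM, and circRNA_0801 a rho of 0.664 and 21.8 RPM per 1000 FPKM. circRNA_0827 had a rho of 0.517 and 88.5 RPM per 1000 FPKM, circRNA_0840 a rho of 0.452 and 24.1 RPM per 1000 FPKM, and circRNA_1134 a rho of 0.232 with XM_011015766.1, an mRNA with a mean of 0.140 FPKM.

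**Figure D5:**
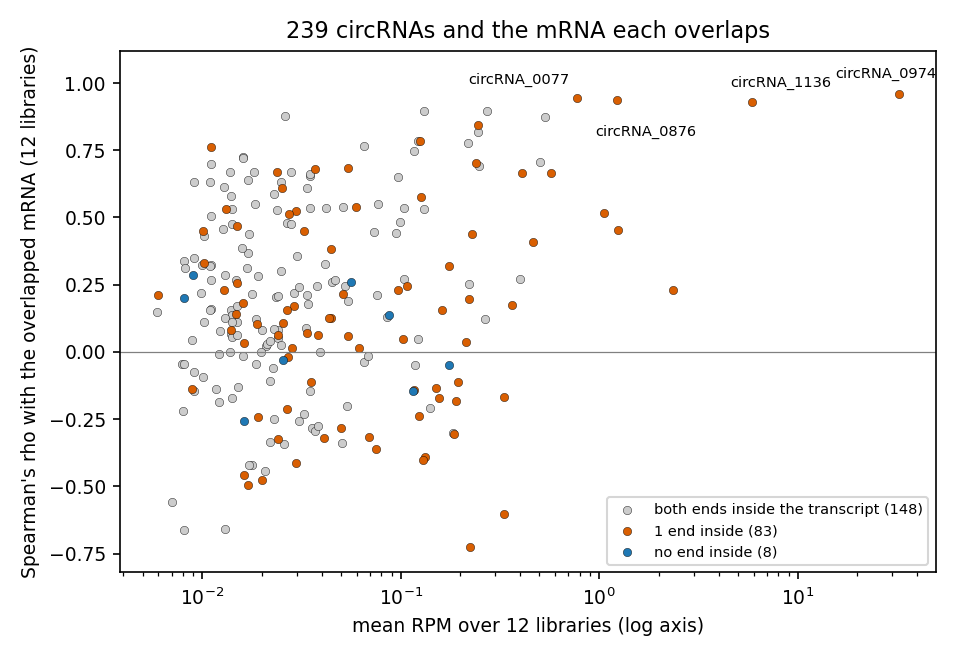
Spearman's rho between each circRNA and its overlapped mRNA over 12 libraries, against the mean RPM of the circRNA on a log axis, for 239 circRNAs above 0 in at least 3 libraries, coloured by how many of their ends lie inside the transcript. circRNA_0974 is at the top right, with the highest rho (0.958) and the highest mean RPM (32.3), and the median rho was 0.183.

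In the plot of rho against mean RPM, circRNA_0974 had the highest rho of the 239 circRNAs with a listed mRNA, which are given as a description. Most of the others were at 0 in several libraries, which limits the rho they can reach. Of the 15 that were above 0 in all 12 libraries, the median rho was 0.706. Of these, 6 had 1 end inside the transcript, with a median of 0.934 and a lowest value of -0.140, and 9 had both ends inside, with a median of 0.692.

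Among mRNAs, XM_011007004.1 was one of the closest in pattern to circRNA_0974. Of 32309 mRNAs with a mean of at least 0.5 FPKM, 10 had a higher rho with the circRNA and 8 the same rho, and none had a higher Pearson's r of log2 values. The median rho of all mRNAs was 0.03, and 226 mRNAs had a rho of at least 0.9. The mRNAs most like circRNA_0974 by rho were XM_011005089.1 (0.986), XM_011010918.1 (0.979), XM_011012319.1, XM_011027251.1 and XM_011032980.1 (0.972 each). They were much lower in level than XM_011007004.1, with medians between 0.610 and 65.1 FPKM over the 12 libraries.

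The circRNAs most like circRNA_0974 by rho were circRNA_0116 (0.944), circRNA_0840 (0.847), circRNA_0272 (0.754), circRNA_0826 (0.671) and circRNA_0876 (0.664), out of 243 compared. circRNA_0116 had means of 0.454 RPM for Li, 0.143 for La, 0.199 for Ov and 0.194 for Bo. The mRNAs most like XM_011007004.1 were XM_011043549.1 (rho 0.965), XM_011022873.1 and XM_011050053.1 (0.958 each), and XM_011011533.1 and XM_011021190.1 (0.951 each). XM_011011533.1 was the most abundant of these, but its range was small, between 627 and 788 FPKM.

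Markers of leaf cell types were set beside these patterns. The 10 photosynthesis mRNAs (RuBisCO small chain and activase, chlorophyll a-b binding proteins and photosystem subunits), none of them at 0 throughout, summed to between 6678 and 8898 FPKM in Li, 3015 and 5341 in La, 2398 and 4057 in Ov and 1949 and 2933 in Bo. All marker lists were picked here from mRNAs that the study classed as falling over the groups (photosynthesis and dividing cells) or rising over them (laccases), so their direction over the groups is not independent evidence. The photosynthesis sum had a rho of 0.476 with circRNA_0974. Its 10 single mRNAs had a rho between -0.063 and 0.804, with 9 above 0. One of them, XM_011017408.1 (RuBisCO small chain), lay between 1.18e-17 FPKM (La1) and 2516 FPKM (Li2). The 6 mRNAs of dividing cells (histones H4 and H2A and a cyclin-D1-1-like mRNA) summed to between 420 and 644 FPKM in Li, 130 and 448 in La, 80.3 and 394 in Ov and 142 and 369 in Bo, with a rho of 0.580. The laccase-12-like sum was between 0.103 FPKM (La2) and 37.3 FPKM (Bo2), with a rho of 0.378, and the values of 2 of its 3 transcripts were equal in every library. Of the 19 markers, XM_011031648.1, which encodes a chlorophyll a-b binding protein, fell in Bo/Li (log2 change -2.45, limma adjusted p = 0.0346). In that pair 0.508% of 32309 mRNAs were called, and no other marker passed the limma test in any pair. The study's classes required a difference between Li and Bo in these same libraries, so this p is not independent evidence either. In whole leaves, fewer cells of a type and less RNA per cell cannot be told apart, and the part of cell types in the levels of circRNA_0974 and XM_011007004.1 was not tested.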

How the data were processed

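Strand-specific total RNA libraries, depleted of ribosomal RNA, were made by the authors from 12 leaf samples. The deposited FPKM values were estimated by the authors with Bowtie2 and eXpress on RefSeq transcripts of PopEup_1.0. Reads with several matching transcripts are shared out by that tool, so near-identical transcripts are less certain. The deposited RPM values are junction reads called by the authors with CIRI and scaled by library size. TopHat2 and Cufflinks are also named in the submitters' processing notes, and no tool versions were given there.

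The lowest RPM of a library was taken as 2 junction reads. All values above 0 (100%) were then whole reads within 0.01 of a read. These reads were used for depth and for the Wilson and Poisson intervals, and in no test. Log2(FPKM + 1) of 32309 mRNAs with a mean of at least 0.5 FPKM, and log2(RPM + 0.0116) of 244 circRNAs above 0 in at least 3 libraries, were each fitted with limma 3.58.1 (trend, R 4.3.3) over all 12 libraries with 4 group means, two-sided. The threshold for a call was an adjusted p of 0.05. Pairs of groups are written with the older first, and folds on these scales understate changes of low RNAs. Permutation tests were run with SciPy 1.17.1 and NumPy 2.4.6. The scripts were tested on simulated data.

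Replicate numbers 1 to 3 are in the sample titles. The deviations of same-numbered mRNA libraries from their group means correlated by 0.246, 0.641 and 0.662 between Ov and La. Between Bo and Ov these correlations were 0.321, 0.0407 and 0.289, and in no pair of groups other than Ov and La were all over 0.1. The main fits did not use the numbers, which entered only in alternatives. Named RNAs were the 2 members, circRNAs and neighbour genes of the locus, the 5 next circRNAs by mean RPM, the 5 most similar circRNAs or mRNAs by rho, and the markers. circRNA_0077 is labelled in a plot after its values were seen, and circRNA_0326 and circRNA_0801 were also named after their values were seen. The members and lists were chosen with earlier results of these data known. Symbols from the RefSeq table, of a later assembly version, matched 49440 of 49676 mRNAs. That table served for names, gene order and the limits of neighbour genes. Its positions were the same as the authors' for 404 of 404 overlapped transcripts of genes with 1 transcript. No sequence was analysed here. Alternatives covered the pseudocount, filter, scaling, trend, groups fitted, replicate block, leaving out each library, and unadjusted p.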

Additional observations from a re-analysis of the deposited data

How the results depend on the processing

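Over the alternatives tried, the relation of circRNA_0974 with XM_011007004.1 kept its sign and its p under 0.05 wherever a p was computed, with r between 0.974 and 0.993 when 1 library was left out, 0.990 on the linear scale, 0.969 for the share, and 0.980 with the replicate block (deviations from group and number means). The ratio of both RNAs did not pass under any alternative. For the leaf groups, circRNA_0974 passed when no filter on low circRNAs was used, with log2 changes unchanged at -1.56 (adjusted p = 6.88e-22), -1.64 (2.11e-24) and -1.45 (1.27e-18) in La/Li, Ov/Li and Bo/Li and an F test at adjusted p = 1.99e-31. That limma fit held all 1149 circRNAs, also those at 0 in most libraries, and its SE fell to 0.151. Leaving this fit out, the adjusted p of circRNA_0974 ranged from 0.282 to 0.786 in La/Li, 0.128 to 0.677 in Ov/Li and 0.346 to 0.906 in Bo/Li. With unadjusted p, the changes of -1.56, -1.64 and -1.45 of circRNA_0974 and of -1.64 (La/Li) and -1.74 (Ov/Li) of XM_011007004.1 passed.

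With 1 library left out, the log2 changes in La/Li, Ov/Li and Bo/Li were from -1.89 to -1.20, -2.20 to -1.31 and -1.93 to -0.69 for circRNA_0974 and from -1.87 to -1.29, -2.33 to -1.34 and -1.68 to -0.82 for XM_011007004.1, and none passed. The sign turned in the pairs without Li, where log2 changes were from -0.64 to 0.25 (Ov/La), -0.37 to 0.87 (Bo/La) and -0.29 to 0.95 (Bo/Ov) for circRNA_0974, and from -0.69 to 0.30, -0.0483 to 0.82 and -0.00616 to 0.99 for XM_011007004.1. The p of the share over groups ranged from 0.0213 to 0.2625 and that of the remaining RPM from 0.04883 to 0.5427. The relations with the remaining circRNAs reversed on deviations from the group means (0.152 for circRNA_0974 and 0.234 for XM_011007004.1) and with the replicate block (0.383 and 0.412). In the replicate block fits, limma's adjusted p was between 0.223 and 0.345 in Ov/Li for circRNA_0974 and between 0.0837 and 0.129 for XM_011007004.1, and the block changed no call of either. The count of mRNAs called in Ov/Li ranged from 3 to 1680 over the alternatives that kept the adjusted p, and was 6223 with unadjusted p, against 99. The tests on junction reads with a count model, listed as alternatives, were not run, because RPM was treated as a normalized unit, and the gene has 1 transcript, so that summing transcripts gives no other value. Junction reads limit the circRNA values little (597 or more), and the depth of FPKM is unknown. In the pairs with Li, these 2 RNAs changed by about 1.5 on the log2 scale, with 3 libraries a group. These changes did not pass limma after adjustment over all RNAs of the class, apart from circRNA_0974 in the fit with no filter.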
